A study of Mus musculus with 12 samples.

Results

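Genes that mark naive and central memory T cells were followed across 4 populations of sorted mouse CD4 T cells. The set was chosen by gene symbol: the transcription factors Tcf7, Lef1, Foxp1, Klf2, Bach2 and Satb1, and the receptors Il7r, Ccr7 and S1pr1. The choice was made with earlier results of these data known, so setting the members beside all genes is not an independent test. Of these 9 genes, 7 had a probe under their symbol in the platform annotation, out of 17759 genes with a probe in all, and 6 were bright enough to be tested. Expression of Tcf7 and Bach2 was not analysed here, and S1pr1 is described without a test. Where a gene had several probes, the one with the highest mean over the 12 arrays stands for it, and the others are given by value.

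Total RNA was hybridised to 12 Illumina mouse arrays, 3 for each of 4 groups, named here as the titles name them: Blimp1 CKO pTreg, Ctrl pTreg, Blimp1 CKO Teff and Ctrl Teff. All cells descended from naive (CD4+CD44low) T cells of C57BL/6 mice aged 8 to 12 weeks with a Foxp3GFP reporter, either Blimp1-deficient (CKO) or Blimp1-sufficient (Ctrl), which were put in equal numbers into RAG1-/- mice. RAG1-/- hosts cannot form mature lymphocytes of either lineage, B or T, but keep their myeloid and natural killer cells. After 6 to 8 weeks the progeny were sorted by Foxp3, CD4 and allotype into peripherally induced regulatory cells (pTreg, Foxp3-positive) and effector cells (Teff, Foxp3-negative), from pooled spleen, mesenteric lymph nodes and large intestine lamina propria, and were stimulated for 4 h with PMA and ionomycin. Every group thus shares the reporter, the lymphopenic host and the stimulation. The promoter that drives the deletion is not given in the labels, and neither is whether replicates came from different mice or hosts. The p-values therefore cover only the spread among these arrays, which may be technical.

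Naive and central memory T cells are kept quiet and in circulation by a small group of regulators. Tcf7 and Lef1 encode high-mobility-group factors that work with beta-catenin, Foxp1 is a forkhead repressor of exit from quiescence, Bach2 holds back effector genes, and Satb1 organises chromatin in developing T cells. Klf2 switches on S1pr1, the receptor by which T cells leave lymphoid tissue, Ccr7 leads them into lymph nodes, and Il7r, the alpha chain of the interleukin-7 receptor, carries the survival signal. Activation through the T cell receptor is known to lower several of these transcripts, and Blimp1, encoded by Prdm1, is a repressor associated with effector and terminally differentiated lymphocytes.

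The arrays had nearly equal medians, from 4.66 to 4.68 on the log2 scale, and correlated with one another at 0.943 to 0.988. Foxp3 on its brightest probe was higher in pTreg than in Teff within each genotype, by 3.41 in CKO (adjusted p = 0.008) and by 3.44 in Ctrl (adjusted p = 0.00329). The Prdm1 probe was higher on the arrays labelled CKO, by 3.27 in pTreg and by 3.34 in Teff; its position relative to the deleted part is not given, so it does not check the genotype labels. Same-numbered CKO and Ctrl arrays deviated together, with correlations of their residuals of 0.519 to 0.590 in pTreg and 0.348 to 0.737 in Teff, so the genotype results are also given with same-numbered arrays as pairs. Same-numbered pTreg and Teff arrays did so less evenly (0.0416 to 0.325 in CKO, −0.266 to 0.265 in Ctrl; 2 of 3 and 1 of 3 correlated best with their own number), and were not taken as pairs. The arrays also fell into 2 sets that cut across the groups: set A held pTreg 1, Teff 1 and Teff 2 of both genotypes, and set B the other 6 arrays. The sets came from the first principal component of 5744 probes that were dim on every array, which held 14.3% of their variance; the labels do not say what the sets are.

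Satb1, Il7r, Foxp1, Klf2 and Ccr7 lay above the array median on all 12 arrays, and Lef1 and S1pr1 lay at or near the array medians. Levels of different probes are not set against each other, since probes differ in brightness. Satb1 ranged from 9.76 to 11.85 over the 12 arrays, Il7r from 7.50 to 10.18, Foxp1 from 5.75 to 8.65, Klf2 from 5.39 to 8.30 and Ccr7 from 4.78 to 6.77. Lef1 ranged only from 4.46 to 5.01 and was above its array's median on 4 of 12 arrays, and its second probe, from 4.46 to 5.05, was above it on 3. S1pr1, with a mean of 4.44, was below the array median on every array.

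**Figure D1:**
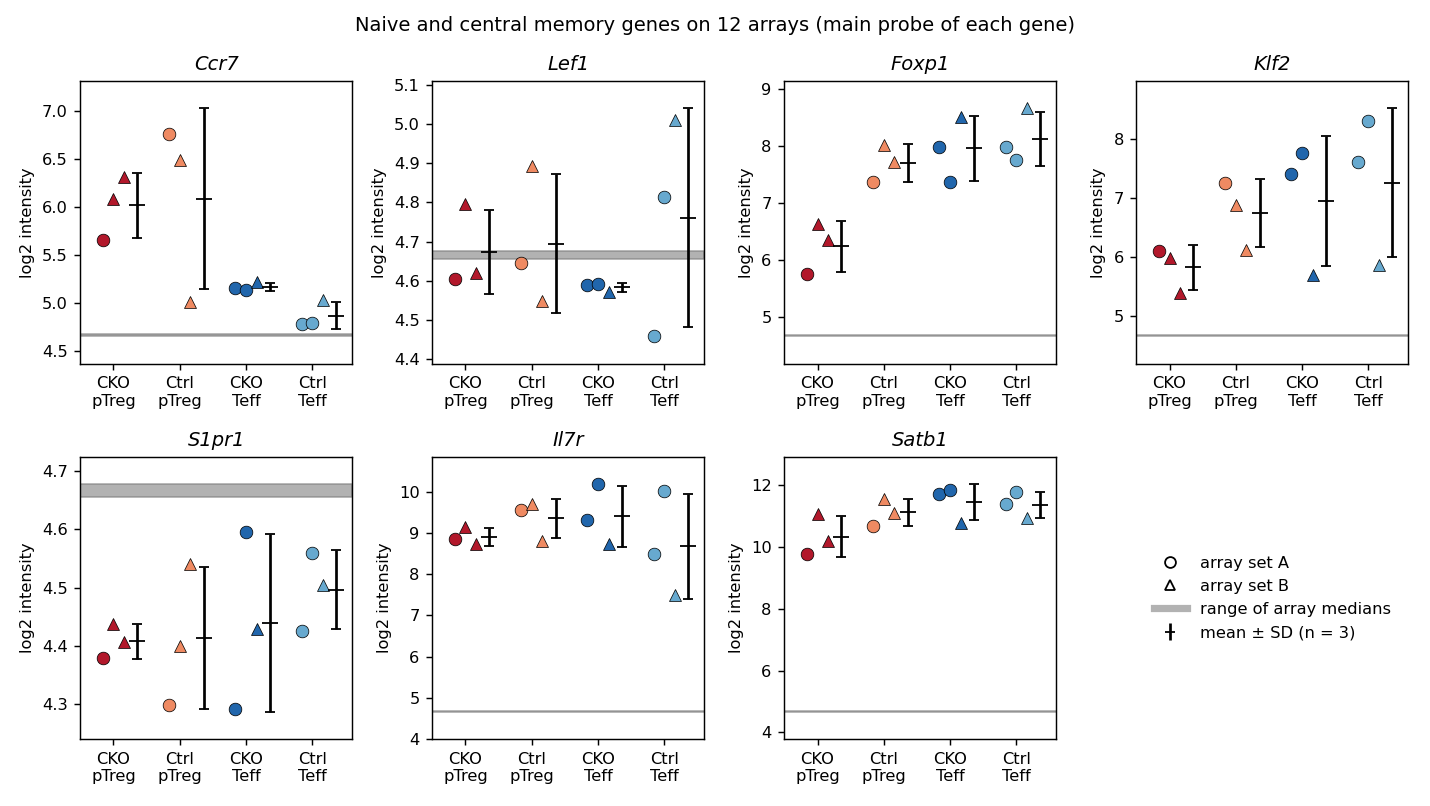
Log2 intensity of the main probe of each of the 7 measured genes, 1 point per array, for CKO pTreg, Ctrl pTreg, CKO Teff and Ctrl Teff (circles, array set A; triangles, array set B); bars are mean ± SD (n = 3), and the grey band is the range of the 12 array medians. Foxp1 lies between 5.75 and 6.62 on the CKO pTreg arrays, below the other 9 arrays (7.36 to 8.65), while Klf2 is lower on the triangles within every group.

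In pTreg, the transcription factors Foxp1, Klf2 and Satb1 were lower on the CKO array of every same-numbered pair, Foxp1 by the widest margin. All 6 tested genes had a negative difference, but those of Ccr7 (−0.07) and Lef1 (−0.02) were near 0 and changed sign under some alternatives. The median log2 fold change of the 6 was −0.62, against 0.0011 over all 12078 genes tested. Without pairs, 0 of 6 passed an adjusted p of 0.05, where 0.0994% of all genes did, and 1 of 6 had an unadjusted p under 0.05, as 5.32% of all genes did. With pairs, Foxp1, Klf2 and Satb1 fell, 3 of 6, where 2.19% of all genes passed in either direction and 1.3% fell; that background was 264 genes, and 30 to 58 with any one pTreg pair left out. In bulk RNA, fewer cells of a type and less RNA per cell cannot be told apart.

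Foxp1, the forkhead repressor, had log2 values of 5.75, 6.62 and 6.34 on the 3 CKO pTreg arrays, against 7.36, 8.02 and 7.71 on the 3 Ctrl pTreg arrays. The groups did not overlap, and the CKO array was the lower of each pair by 1.37 to 1.61. The log2 fold change was −1.46 ± 0.34 (SE; 95% interval −2.21 to −0.71), that is 2.75-fold lower in CKO. The limma adjusted p was 0.255 without pairs and 0.00118 with pairs (SE 0.119), and in the fits with pairs it stayed under 0.05 whichever pair was left out (0.00252 to 0.0214).

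Klf2, the zinc-finger factor of quiescence and trafficking, had 6.11, 5.98 and 5.39 on the CKO pTreg arrays, against 7.25, 6.87 and 6.12 on the Ctrl pTreg arrays. The highest CKO array lay just under the lowest Ctrl array, and the CKO array was the lower of each pair by 0.73 to 1.14. Its log2 fold change was −0.92 ± 0.65 (SE; adjusted p = 1.00) without pairs, and its SE was 0.130 with pairs (adjusted p = 0.0129). Satb1, the chromatin organiser, had 9.76, 11.05 and 10.18 on the CKO pTreg arrays, against 10.69, 11.56 and 11.11 on the Ctrl pTreg arrays. The groups overlapped, although CKO was lower in 3 of 3 pairs, by 0.51 to 0.93. Its log2 fold change was −0.79 ± 0.39 (adjusted p = 0.995), with an adjusted p of 0.0263 with pairs. Both calls rest on all 3 pTreg pairs: leaving out any one pTreg pair raised the adjusted p above 0.05, up to 0.104 for Klf2 and 0.176 for Satb1. Over all genes, 6.38% were lower in CKO pTreg with no overlap, as Foxp1 and Klf2 were, and 18.2% were lower in 3 of 3 pairs, as these 3 genes and Il7r were.

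Markers of other cells were present on several arrays. The 10 measured T cell identity genes were above the array median on every array, with means of 10.60 to 10.88 in CKO pTreg, against 10.83 to 11.23 in Ctrl pTreg, and of 10.58 to 10.83 in CKO Teff, against 11.10 to 11.11 in Ctrl Teff. The means of 14 neutrophil markers ran from 5.87 to 8.12 in CKO pTreg, against 6.14 to 8.91 in Ctrl pTreg, and from 6.91 to 9.39 in CKO Teff, against 6.17 to 9.95 in Ctrl Teff. Of the neutrophil markers, 11 to 14 of 14 were above the array median on every array. The CKO array was the lower of each pTreg pair in both lists, as it was for Foxp1, Klf2 and Satb1, and the part of these cells in those differences was not tested. Macrophage and dendritic cell markers averaged 6.09 to 6.43 in CKO pTreg, against 5.57 to 6.14 in Ctrl pTreg, and 5.93 to 6.65 in CKO Teff, against 5.32 to 6.16 in Ctrl Teff, with the CKO array the higher of each pair in both cell types.

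The promoter windows of the 3 genes that fell together are shown because the deleted factor is a DNA-binding repressor, and so that the motifs can be read in place. Each window runs from 250 bases before to 50 bases after the outermost RefSeq start of the gene, 5′ to 3′ on the gene's strand (RefSeq, GRCm38.p6): chr6:99520944-99521243 on the minus strand for Foxp1, chr8:72318812-72319111 on the plus strand for Klf2 and chr17:51833241-51833540 on the minus strand for Satb1. Capitals mark matches on either strand to GAAAGT or GAAAGG (the core of Blimp1 sites), CTTTGA (TCF and LEF factors), GTAAACA (forkhead factors), CACCC (KLF factors) and CCGGAAG (ETS factors).
Foxp1: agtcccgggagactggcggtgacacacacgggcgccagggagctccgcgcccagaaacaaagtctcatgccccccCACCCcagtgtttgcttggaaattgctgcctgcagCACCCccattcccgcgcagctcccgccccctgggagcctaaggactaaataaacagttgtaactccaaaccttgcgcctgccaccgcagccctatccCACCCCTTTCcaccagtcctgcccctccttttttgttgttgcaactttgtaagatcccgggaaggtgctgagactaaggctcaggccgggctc
Klf2: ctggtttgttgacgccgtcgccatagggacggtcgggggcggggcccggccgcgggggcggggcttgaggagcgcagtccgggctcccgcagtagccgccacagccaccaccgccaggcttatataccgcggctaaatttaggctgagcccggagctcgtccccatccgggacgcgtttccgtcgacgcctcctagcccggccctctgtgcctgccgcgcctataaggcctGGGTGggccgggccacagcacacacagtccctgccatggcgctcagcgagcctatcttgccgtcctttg
Satb1: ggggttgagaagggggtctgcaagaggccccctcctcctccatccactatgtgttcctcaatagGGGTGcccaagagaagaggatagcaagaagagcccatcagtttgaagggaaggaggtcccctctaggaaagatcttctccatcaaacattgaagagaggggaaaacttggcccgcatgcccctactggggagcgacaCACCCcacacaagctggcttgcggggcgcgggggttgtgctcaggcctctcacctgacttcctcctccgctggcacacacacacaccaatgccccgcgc
In the Foxp1 window CACCC stood at bases 76 to 80, 111 to 115 and 208 to 212, and GAAAGG lay on the opposite strand at bases 212 to 217, sharing 1 base with the last CACCC. The Klf2 window held a single match, CACCC on the opposite strand at bases 232 to 236. The Satb1 window held CACCC at bases 202 to 206 and, on the opposite strand, at 65 to 69. Of the windows not printed, 1 of the other Satb1 starts held GAAAGG on the opposite strand at bases 130 to 135, and 1 Lef1 start held GAAAGT and GAAAGG. Some windows of a gene overlap, so they are not separate counts. All starts of the 7 genes with a RefSeq window (Tcf7, Lef1, Foxp1, Klf2, Il7r, Bach2 and Satb1) gave 17 windows. GAAAGT was in 1 of 17 windows and GAAAGG in 3, against 14.3% and 23.8% of 32851 RefSeq windows, with 1 chromosome left out. CACCC was in 13 of 17 windows against 57.5%, CTTTGA in 3 against 16%, CCGGAAG in 2 against 8.86% and GTAAACA in 1 against 3.65%. A match is only a run of letters, and its absence says nothing of the factor outside the window.

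Of the receptors and Lef1, none passed in pTreg with or without pairs. Il7r had 8.85, 9.13 and 8.72 on the CKO pTreg arrays, against 9.56, 9.69 and 8.80 on the Ctrl pTreg arrays. CKO was the lower of each pair, by 0.70, 0.56 and 0.08, but the groups overlapped, and the log2 fold change of −0.45 ± 0.56 had an adjusted p of 1.00 without and 0.363 with pairs. The other Il7r probes did not share that pattern: ILMN_2659739 differed by −0.71, 0.76 and 0.10 in the 3 pTreg pairs, and ILMN_2975500 lay between 4.46 and 4.76 on all 12 arrays, near the array medians. Ccr7, the lymph node homing receptor, had 5.66, 6.09 and 6.32 on the CKO pTreg arrays, against 6.77, 6.49 and 5.01 on the Ctrl pTreg arrays. The Ctrl arrays spanned the whole CKO range and the pairs went in both directions (−1.11, −0.40 and 1.30), with a mean of −0.07 (95% interval −0.89 to 0.75). Lef1 differed by −0.02 (95% interval −0.35 to 0.31), and S1pr1, below the filter, by −0.0055 with its 3 pairs between −0.13 and 0.08.

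**Figure D2:**
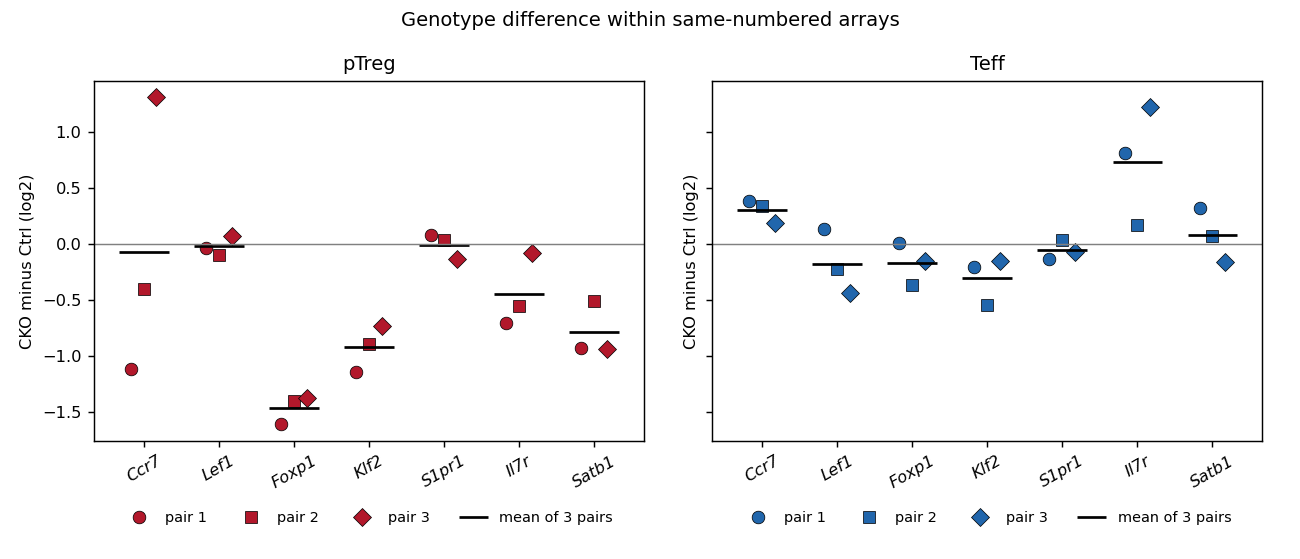
CKO minus Ctrl difference in log2 intensity within each same-numbered pair, for pTreg (left) and Teff (right), with the mean of 3 pairs as a black line; the grey line is 0. In pTreg the 3 Foxp1 points lie between −1.61 and −1.37 and those of Klf2 and Satb1 are also all below 0, whereas in Teff the Foxp1 points lie between −0.37 and 0.01 and the Il7r points are all above 0.

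In Teff, Foxp1 and Satb1 differed by −0.17 and 0.08 between genotypes, neither past the threshold, and the receptors Il7r and Ccr7 were higher on the CKO array of every pair without passing. With or without pairs, 0 of 6 genes passed, where 0.0166% of all genes did without and 0.0994% with pairs, and 0 of 6 had an unadjusted p under 0.05 without pairs (4.16% of all genes). The median of the 6 was −0.05, against −0.02 over all genes. Foxp1 had 7.98, 7.37 and 8.51 on the CKO Teff arrays, against 7.97, 7.74 and 8.65 on the Ctrl Teff arrays, a log2 fold change of −0.17 ± 0.34 (95% interval −0.92 to 0.58). The groups overlapped almost entirely. Satb1 had 11.72, 11.85 and 10.77 in CKO Teff, against 11.40, 11.77 and 10.93 in Ctrl Teff, a difference of 0.08 (95% interval −0.78 to 0.94).

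Klf2 was spread widely within each Teff group, with 7.40, 7.76 and 5.70 on the CKO arrays, against 7.61, 8.30 and 5.85 on the Ctrl arrays. The third array of each genotype, the one in set B, was the low one. CKO was lower in 3 of 3 pairs, by 0.15 to 0.54, as 17.7% of all genes were, and the difference of −0.30 ± 0.65 had an adjusted p of 1.00 without and 0.473 with pairs. Il7r had 9.31, 10.18 and 8.72 in CKO Teff, against 8.50, 10.02 and 7.50 in Ctrl Teff. The groups overlapped, but CKO was the higher of each pair by 0.81, 0.16 and 1.22, a mean of 0.73 ± 0.56 (adjusted p = 1.00 without and 0.222 with pairs). Of all genes, 12.8% were higher in 3 of 3 Teff pairs, and 1.93% were also lower in 3 of 3 pTreg pairs, as Il7r was. Its second probe, ILMN_2659739, gave −0.26, −0.07 and 0.80. Ccr7 was dim in Teff, with 5.16, 5.14 and 5.22 on the CKO arrays, against 4.78, 4.79 and 5.03 on the Ctrl arrays. The groups did not overlap, as 2.88% of all genes were higher without overlap, and the difference was 0.30 (95% interval −0.52 to 1.12; adjusted p = 1.00). Lef1 differed by −0.18 (95% interval −0.51 to 0.15) and S1pr1 by −0.06. Macrophage and dendritic cell markers were also higher on the CKO array of each Teff pair, as Il7r and Ccr7 were. Their median was 0.90 over 9 tested markers, with 4 of 9 at an unadjusted limma p under 0.05 (4.16% of all genes). Means of basophil and mast cell, CD8 T and natural killer cell, and epithelial and stromal markers were likewise higher in each Teff pair. Their medians were 2.67 (5 of 8 tested at an unadjusted limma p under 0.05), 1.42 (3 of 10) and 0.07 (1 of 7). Neutrophil and B cell markers were not higher in every pair. The part of any of these marker lists in the Il7r and Ccr7 differences was not tested.

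In CKO Teff the first and second arrays stood apart. Basophil and mast cell markers averaged 8.94 and 8.57 there and 5.51 on the third, against 5.06 to 6.31 in Ctrl Teff. On those 2 arrays 7 and 8 of the 10 markers were above the array median. Markers of CD8 T and natural killer cells reached 8.22 on the second CKO Teff array, against 5.55 to 6.31 in Ctrl Teff, with 10 of 12 above the array median on both the first and the second. Without these 2 arrays, Foxp1 was 0.38 in CKO Teff against Ctrl Teff and Satb1 −0.59, neither past the threshold, and the comparison of pTreg with Teff in CKO gave −2.27 for Foxp1 (adjusted p = 0.235, from 1 remaining CKO Teff array) and 0.13 for Klf2. B cell markers averaged 4.43 to 4.69 on all arrays, about the array medians, and epithelial and stromal markers 4.67 to 5.08.

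**Figure D3:**
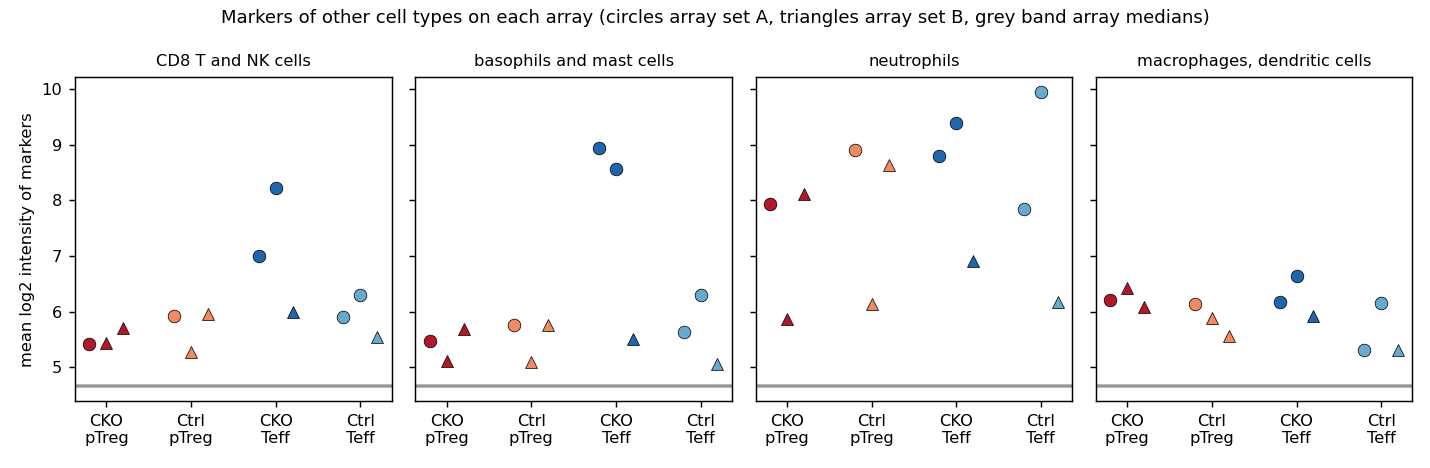
Mean log2 intensity of marker lists of 4 other cell types on each array, by group (circles, array set A; triangles, array set B; grey band, range of array medians). Basophil and mast cell markers reach 8.94 and 8.57 on CKO Teff 1 and 2, against 5.06 to 6.31 in Ctrl Teff, and neutrophil markers vary from 5.87 to 9.95 within and between the groups.

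Whether the genotype difference in pTreg exceeded that in Teff was tested directly as an interaction. Foxp1 had the largest interaction of the 6 genes, −1.29 ± 0.48 (SE; unadjusted p = 0.0222), with an adjusted p of 1.00 without pairs and 0.0570 with pairs. Il7r followed at −1.18, Satb1 at −0.87 and Klf2 at −0.62, with adjusted p of 1.00 each without pairs and 0.182, 0.164 and 0.247 with pairs. Of the 6 genes 0 passed, where 0.0166% of all genes did without and 0.0414% with pairs, and Foxp1 alone had an unadjusted p under 0.05 without pairs (3.47% of all genes). The Foxp1 difference is thus not shown to be confined to pTreg. Averaged over both cell types, Foxp1 had a log2 fold change of −0.81 in CKO against Ctrl (adjusted p = 0.439 without and 0.00337 with pairs) and Klf2 one of −0.61 (adjusted p = 1.00 and 0.0161), and these 2 of 6 passed with pairs (2.28% of all genes) and 0 of 6 without (0.116%; Foxp1 alone had an unadjusted p under 0.05, as 5.51% of all genes did). Klf2 did not pass with pTreg pair 1 or pTreg pair 2 left out (adjusted p = 0.0664 and 0.0618). Of 10 T cell identity genes, the signalling adaptor Lat (−0.80), the T cell receptor chain Cd3e (−0.48) and the adhesion molecule Cd2 (−0.50) also fell over both cell types with pairs, Cd2 named after its values were seen, and 4 of 9 macrophage and dendritic cell markers rose. The part of these genes in the Foxp1 and Klf2 values was not tested. Satb1 averaged −0.35 (adjusted p = 0.126 with pairs), and Il7r, with opposite signs in the 2 cell types, 0.14. Ccr7 and Lef1 had interactions of −0.37 and 0.16 and averages of 0.12 and −0.10, with no call, and S1pr1, not tested, had 0.05 and −0.03.

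**Figure D4:**
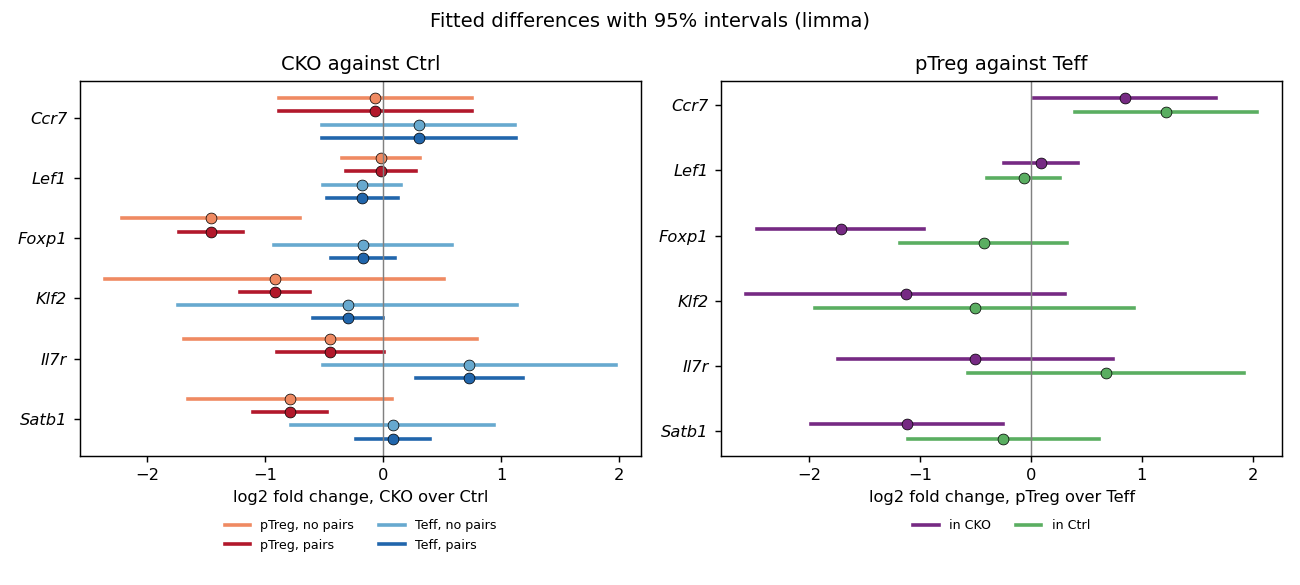
Fitted log2 fold changes with 95% intervals for the 6 tested genes: CKO over Ctrl in pTreg and Teff, without and with same-numbered pairs (left), and pTreg over Teff in CKO and in Ctrl (right). For Foxp1 in pTreg the interval runs from −2.21 to −0.71 without pairs and from −1.73 to −1.19 with them; the Teff interval includes 0 either way.

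Between the cell types, Foxp1 was the gene that fell in pTreg, and Ccr7 was higher there without passing. Averaged over both genotypes, with 6 arrays against 6, Foxp1 fell by 1.07 ± 0.24 on the log2 scale (SE; adjusted p = 0.0395), the only call among the 6 genes, where 3.21% of all genes passed and 1.36% fell. At an unadjusted p under 0.05 there were 3 of 6, Foxp1, Ccr7 and Satb1 (15.5% of all genes). The Foxp1 call was lost in 11 of 22 alternatives, among them no filter on dim probes, each of 9 fits that left out 1 array (CKO pTreg 1, 2 or 3, Ctrl pTreg 1, 2 or 3, CKO Teff 1, and Ctrl Teff 1 or 3; up to 0.0905) and same-numbered arrays as a block (0.0668). With the array set as a block Foxp1 gave −1.31 (adjusted p = 0.000940). Ccr7 averaged 1.03 higher in pTreg (adjusted p = 0.0628), Satb1 −0.68 (0.256), Klf2 −0.82 (0.448), Il7r 0.09 and Lef1 0.01, and S1pr1, not tested, −0.06.

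The lower Foxp1 of pTreg was larger in size on the CKO arrays. In CKO the Foxp1 values given above, 5.75 to 6.62 in pTreg and 7.37 to 8.51 in Teff, did not overlap, as 5.58% of all genes were lower without overlap, and the log2 fold change was −1.71 ± 0.34 (adjusted p = 0.0628). It passed there under 4 alternatives, with a stricter filter (adjusted p = 0.0344), other eBayes settings (0.0353), array weights (0.0256) and the array set as a block (0.00483). In Ctrl, 7.36 to 8.02 in pTreg overlapped 7.74 to 8.65 in Teff, and the fold change was −0.43 (95% interval −1.18 to 0.33). Both comparisons share arrays with the genotype comparisons, so the CKO pTreg values enter each of them, and the test of the difference between −1.71 and −0.43 is the interaction above. Ccr7 was 0.85 higher in CKO pTreg than in CKO Teff (95% interval 0.03 to 1.67; adjusted p = 0.437), with 5.66 to 6.32 against 5.14 to 5.22 and no overlap (8.16% of all genes were higher without overlap, Lef1 among them). In Ctrl it was 1.22 ± 0.37 higher in pTreg (adjusted p = 0.211), with 5.01 to 6.77 against 4.78 to 5.03, and the third Ctrl pTreg array fell inside the Teff range. Without that array the adjusted p was 0.00449.

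Satb1 was −1.11 in CKO pTreg against CKO Teff (95% interval −1.98 to −0.25; adjusted p = 0.308) and −0.25 in Ctrl (adjusted p = 0.930). Klf2 gave −1.13 and −0.51, and Il7r −0.50 in CKO and 0.68 in Ctrl, all with intervals that included 0. Lef1 differed by 0.09 in CKO and −0.07 in Ctrl, and S1pr1, not tested, by −0.03 and −0.08. In both genotypes 0 of 6 genes passed, where 0.356% of all genes did in CKO and 1.02% in Ctrl. At an unadjusted p under 0.05 there were 3 of 6 in CKO (Ccr7, Foxp1 and Satb1; 10.8% of all genes) and 1 of 6 in Ctrl (Ccr7; 10.4%).

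The genes differed in how their variation was split between groups and replicate numbers. Pairs take 4 of the 8 degrees of freedom within groups, so numbers that carried nothing would on average leave 32.9% of the sum of squares for Klf2 and 10.2% for Foxp1. For Klf2, 65.8% of the sum of squares over 12 arrays lay within groups, and 0.889% remained once same-numbered CKO and Ctrl arrays were taken as pairs. The same figures were 20.4% and 0.628% for Foxp1, 49.5% and 2.51% for Satb1, and 81.2% and 6.48% for Il7r. Ccr7 kept 28.7% of 38.0%, against 19.0% if the pairs carried nothing, so its pairs did not narrow it. Klf2 also followed the array sets: it averaged 7.40 in set A and 5.99 in set B, and the difference between pTreg and Teff in CKO was −1.47 within set A and −0.01 within set B. Satb1 gave −2.02 and −0.16 for that comparison, whereas Foxp1 gave −1.93 and −2.02. The genotype difference in pTreg held in both sets, at −1.61 and −1.38 for Foxp1, −1.14 and −0.81 for Klf2, and −0.93 and −0.72 for Satb1. Set A holds 1 pTreg array of each genotype, so its pTreg values are single pairs. Set B holds 1 Teff array of each genotype, so its differences between pTreg and Teff rest on 1 Teff array each. The sets also hold unlike shares of pTreg and Teff arrays, which enter the Klf2 means of 7.40 and 5.99. In Teff, neutrophil markers were also lowest on the third array of each genotype, at 6.91 in CKO and 6.17 in Ctrl. In pTreg they were lowest on the second array of each genotype, where Klf2 was not. The part of these cells in the Klf2 spread was not tested.

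Over the 12 arrays, which share the groups, the pairs and the array sets, the genes did not move as 1 block. Klf2 correlated with Satb1 at r = 0.73 and with Il7r at 0.66, and Foxp1 with Satb1 at 0.60, but Foxp1 with Klf2 at only 0.23. Once group means were removed, Klf2 and Il7r correlated at 0.89, whereas Foxp1 ran opposite to Klf2 (−0.78) and to Il7r (−0.63). Foxp1 and Klf2 were both low in CKO pTreg. The opposite run was plainest in Teff, where the third array of each genotype, in set B, stood apart. It had the highest Foxp1 of its group (8.51 in CKO, 8.65 in Ctrl) and the lowest Klf2 (5.70 and 5.85). In pTreg of both genotypes the second array was above the third in both genes, so the opposite run did not hold throughout.

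The genes with the pattern most like each member were ranked by Pearson r over the 12 arrays, out of 11746 candidates. Such genes have the highest of many correlations over only 12 arrays, so a high r alone does not show a link. For Klf2 they were Arih2 (r = 0.97), an E3 ubiquitin ligase, and Ppp1r15a (0.96), the stress-response phosphatase subunit. For Foxp1 they were Bbc3 (0.91), the pro-apoptotic protein Puma, and Slc2a3 (0.89), a glucose transporter. For Satb1 they were Cdc42ep3 (0.91) and Frmd6 (0.89), and for Il7r the interferon-induced genes Irgm1 and Irf9 (0.91 each). Ccr7 was matched by Ankrd55 (0.93) and Pigz (0.88), and the dim Lef1 by Upk2 (0.86) and Tnrc6b (0.83). Once group means were removed, r was 0.62 for Bbc3 and 0.46 for Slc2a3, and 0.82 to 0.98 for the other genes named so far. The mean of the 6 standardised genes was followed most closely by Tob2 (0.88), Plekha5, Asf1a and Dok5 (0.87 each), Pim1 (0.86) and Ski (0.85). It was opposed by Ccp110 (−0.91), Ap1g2 (−0.88), Gde1, Gtf2e2 and Usf3 (−0.86 to −0.85) and Gpr180 (−0.85).

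Among 40 other naive and central memory genes, 28 were tested, and 0 passed between genotypes without pairs in limma, with 4 of 28 at an unadjusted p under 0.05 in pTreg (5.32% of all genes) and 4 of 28 in Teff (4.16%). In pTreg their median was −0.21, with 17 of 28 negative, and with pairs only Tsc22d3 passed, where 2.19% of all genes did. Tsc22d3, which encodes the glucocorticoid-induced leucine zipper, had 5.39, 5.14 and 4.99 on the CKO pTreg arrays, against 6.66, 6.53 and 6.34 on the Ctrl pTreg arrays. It fell by 1.34 on the log2 scale with pairs (adjusted p = 0.00351; 0.680 without pairs), close in size to the Foxp1 difference. Over both cell types with pairs, Id3 (0.67), an inhibitor of E proteins, and the adhesion molecule Pecam1 (1.28) rose in CKO, and lymphotoxin beta (Ltb, −0.65) and Tsc22d3 (−0.64) fell. Of these 4 of 28 genes, where 2.28% of all genes passed, Tsc22d3 was named here after its values were seen. Pecam1 is also among the epithelial and stromal markers used here, and which cells its rise came from was not tested. Between pTreg and Teff over both genotypes 3 of 28 passed: the costimulatory receptors Cd28 (0.95, adjusted p = 0.0203) and Cd27 (1.19, 0.0225) rose and the survival gene Bcl2 fell (−1.48, 0.0227), with a list median of −0.14, where 3.21% of all genes passed. With same-numbered arrays as a block Cd28 did not pass (adjusted p = 0.0537), and Btg1 (−0.85, 0.0496), an antiproliferative gene named after its values were seen, did. Same-numbered pTreg and Teff arrays were not taken as pairs above, so Btg1 is not counted as a call.

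Partners of the receptors and factors changed in single genes. Of 10 tested genes of interleukin-7 signalling, 9 were negative in CKO pTreg against Ctrl pTreg with a median of −0.36. With pairs only Pim1 (−0.83, adjusted p = 0.0397), a kinase induced by Stat5, passed, where 2.19% of all genes did, and it fell. Pim1 was singled out after its values were seen. Without pairs 0 of the 10 passed, and 3 had an unadjusted limma p under 0.05 (5.32% of all genes). Of 12 tested genes of the S1P and chemokine receptor axis, with pairs in pTreg the chemokine receptors Cxcr5 (1.39, adjusted p = 0.0129) and Cxcr3 (0.90, 0.00970) rose. The G protein subunit Gnai2 (−0.69, 0.0449), through which Ccr7 and S1pr1 signal, fell, where 2.19% of all genes passed in either direction. Cxcr5 had 8.08, 7.31 and 7.33 on the CKO pTreg arrays, against 6.11, 6.42 and 6.05 on the Ctrl pTreg arrays. Over both cell types with pairs, Cxcr5 (1.18), Cxcr3 (0.47) and Cxcr4 (0.99) rose in CKO, 3 of 12, where 2.28% of all genes passed in either direction. Cxcr3 was named after its values were seen. Sphk1, a kinase that makes sphingosine 1-phosphate, was lower in pTreg than in Teff over both genotypes (−1.86, adjusted p = 0.00159). It was the only one of the 12 to pass there, where 3.21% of all genes passed and 1.36% fell.

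Of 13 TCF and LEF partners, Axin2, a target of beta-catenin, was the only one to pass in any comparison. It was lower in pTreg than in Teff over both genotypes (−1.49, adjusted p = 0.0174), where 3.21% of all genes passed. Of 12 tested relatives of the KLF, FOXP, BACH and SATB families, only Foxp3, on which the cells were sorted, passed in any comparison. The 25 tested effector and terminal differentiation genes had medians of −0.25 in pTreg and 0.0026 in Teff between genotypes. Of these Prdm1 alone passed without pairs, where 0.0994% of all genes did in pTreg and 0.0166% in Teff. With pairs the granule gene Nkg7 also fell in CKO pTreg (−1.07, adjusted p = 0.0385), where 1.3% of all genes fell. Between pTreg and Teff over both genotypes 7 of the 25 fell, among them the chemokine Ccl5 (−3.00, adjusted p = 0.00216) and the repressor Zeb2 (−1.79, 0.00225), where 1.36% of all genes fell. Batf, a factor of effector and regulatory T cells, rose (0.72, adjusted p = 0.0361), but did not pass with same-numbered arrays as a block (0.0609).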

How the data were processed

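The deposited values were log2 intensities of 31641 probes on 12 Illumina arrays; the log2 scale was read from the values, and GenomeStudio and limma 3.30.11 are named in the submitters' processing notes. How background and array differences were corrected was not stated in the sources used here, and the number of arrays limits the precision. Of the probes, 28197 had 1 gene symbol in the platform annotation, 5 had several and 3439 none. Each gene was represented by its probe with the highest mean and tested where that probe exceeded its array's median on at least 3 of 12 arrays, which left 12078 of 17759 genes.

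All 12 arrays entered 1 limma 3.58.1 fit in R 4.3.3 (lmFit, eBayes; package data.table, version 1.17.8), with 1 mean per group, two-sided tests and Benjamini-Hochberg adjustment over all 12078 genes at 0.05, with 2.51 degrees of freedom from the prior and 10.5 in all. The 7 comparisons set CKO against Ctrl and pTreg against Teff, each within and over the other factor, and their interaction. Pairs enter as the replicate number within cell type (for pTreg against Teff, within genotype), a fixed term. The pairing rests on the residual correlations, since the labels give only the numbers. Array sets were defined after seeing the data. The fitting code was tested on simulated data. Every member with a probe was named in every comparison, of other lists at most 4 genes by smallest p per comparison, and 2 genes by correlation for each member. Members and lists were chosen with earlier results of these data known. Promoter windows came from RefSeq, GRCm38.p6. Alternatives were other normalizations, filters, probe summaries, eBayes settings, array weights, array subsets, blocks and left-out arrays.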

Additional observations from a re-analysis of the deposited data

Results flagged for a closer look

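Il7r stood out because its genotype difference had opposite signs in every pair of the 2 cell types: the CKO array was lower in 3 of 3 pTreg pairs, with a mean log2 difference of −0.45, and higher in 3 of 3 Teff pairs, with a mean of 0.73. Of all genes tested, 1.93% had that pattern. The difference between −0.45 and 0.73 was tested as an interaction, −1.18, and did not pass (limma, adjusted p = 1.00 without pairs and 0.182 with pairs). A second Il7r probe had mixed signs in both cell types. A cause was not tested.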

How the results depend on the processing

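Of 1085 recomputed values, 994 kept their direction and side of the threshold, 38 passed where the reported value did not, 11 no longer passed and 42 changed sign. The count of the 6 genes passing between pTreg and Teff over both genotypes (1) was 0 with no filter and with the replicate block, where the number is only a shared label, 2 with the stricter filter and with trended robust eBayes (Foxp1 and Ccr7), and 0 to 1 with single arrays left out. Within CKO (0) it was 1 with the stricter filter, trended robust eBayes, array weights or the array set, and within Ctrl 0 to 1 with single arrays left out. For CKO against Ctrl in pTreg (0) it was 3 with the replicate block, 1 with the array set, 1 with any pTreg pair left out of the block and 3 with any Teff pair left out; over both cell types 2, 1, 1 (pTreg pair 1 or 2) and 2 (other pairs); for the interaction 1 (Foxp1) with Teff pair 3 left out. The block changed no other call.

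Sign changes, with the range over single arrays left out, came in values near 0 or widely spread. For CKO against Ctrl in pTreg, Ccr7 was 0.027 with array weights, 0.45 and 0.10 with pTreg pair 1 or 2 left out (−0.61 to 0.27), and Lef1 0.016 with pTreg pair 2 left out (−0.095 to 0.078). In Teff, Satb1 was −0.041 without Teff pair 1 and −0.59 without CKO Teff 1 and 2 (−0.14 to 0.42), Foxp1 0.38 without those 2 arrays (−0.45 to 0.12), and Klf2 ranged from −1.001 to 0.32. Over both cell types, Ccr7 was −0.23 without pTreg pair 3 (−0.15 to 0.29) and Il7r −0.20 without CKO Teff 1 and 2 (−0.15 to 0.48). In the interaction, Klf2 was 0.63 without CKO Teff 1 and 2 (−1.24 to 0.082) and Ccr7 0.15 without pTreg pair 1. For pTreg against Teff in CKO, Lef1 was −0.0013 with the mean of probes, and without CKO Teff 1 and 2 Il7r was 0.18 and Klf2 0.13. In Ctrl, Lef1 was 0.058 with array weights (−0.22 to 0.059) and Klf2 ranged from −1.21 to 0.016. Over both genotypes, Lef1 was −0.050 with the mean of probes and −0.032 with the array set (−0.063 to 0.074), and Il7r ranged from −0.20 to 0.42. The cause was not tested.

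Over all genes, CKO against Ctrl in pTreg gave 12 calls, 264 with pairs, 34 with array weights, 25 with only the arrays compared or the array set, and 5 to 17 with single arrays left out. The 264 became 30, 58 and 57 with pTreg pair 1, 2 or 3 left out, and 261 to 318 with a Teff pair left out. Teff gave 2 (0 to 52 with single arrays left out), 12 with pairs, and 4, 34 and 123 with Teff pair 1, 2 or 3 left out. Both cell types together gave 14 (6 to 45), 275 with pairs, and 84 to 231 with a pair left out. pTreg against Teff gave 43 in CKO (16 to 259 with single arrays left out), 123 in Ctrl (44 to 163) and 388 over both (212 to 639). With array weights these were 245, 248 and 777. With only the arrays compared they were 4 in CKO and 29 in Ctrl. With 3 arrays a group, with Lef1 and S1pr1 near the array medians and Il7r probes that disagree, small differences could not be measured.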
